A study of Mus musculus with 15 samples.

Results

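The 10 genes Ifit1, Ifit2, Ifit3, Ifit3b, Ifi44, Isg15, Rsad2, Mx1, Mx2 and Bst2 are effectors of the type I interferon response. They are 10 of the 46603 genes counted in mouse embryonic fibroblasts (MEFs) and 10 of the 15997 genes with enough counts to be tested. They were picked from a list of such effectors by their values in these same samples, for strong responses to adipogenic treatment that ran in opposite directions at day 3 and day 5. Those responses are therefore given as a description, without a test. The day 0 samples had no part in the choice, so comparisons with day 0 were tested, although the other condition in each of them did have a part. The choice favoured high values in MEFD3min and MEFD5plu and low values in MEFD3plu and MEFD5min (conditions named below).

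The MEFs were wild-type cells of the BALB/c strain from embryos of 10.5 days, grown in DMEM with 10% FBS. MEFD0 is the day 0 culture before treatment, MEFD3min and MEFD5min are untreated cells at days 3 and 5, and MEFD3plu and MEFD5plu are the treated cells of the same days. Treatment was a mixture of 1 µM dexamethasone, a glucocorticoid, 10 µM rosiglitazone, which activates Pparg, 10 µg/mL insulin and 0.5 mM of the phosphodiesterase inhibitor IBMX. Treated cells had the mixture for 3 days and were back in growth medium until day 5, so MEFD3plu was sampled with the agents present and MEFD5plu after their removal. The agents were given together, and their separate parts cannot be told apart. Each condition had 3 samples, numbered 1, 3 and 4, and nothing in the labels says that they came from separate cultures or animals, so p-values measure the spread between these samples, which may be technical.

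Cells that detect foreign nucleic acid secrete type I interferons, which bind the receptor of Ifnar1 and Ifnar2 on the same and on neighbouring cells. The receptor's kinases act on transcription factors, Stat2 with Irf9 among them, in a complex that binds interferon-stimulated response elements (ISREs) in the promoters of effector genes. Ifit proteins bind viral RNA or translation factors, Isg15 is a ubiquitin-like modifier, Rsad2 (viperin) makes a chain-terminating nucleotide, Mx1 and Mx2 are dynamin-like GTPases, and Bst2 (tetherin) holds budding virus at the cell surface. Ifi44 is an interferon-induced protein whose biochemical role is less well known. Fibroblasts can both make interferon beta and answer it.

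The promoters are shown because the genes move together and because the ISRE is the element through which the receptor is known to act. RefSeq promoter windows of the mouse assembly GRCm38.p6, running from 250 bases before to 50 bases after a transcript start, were matched by symbol for 8 of the 10 genes, with no entry for Mx1 and Mx2. The core ISRE was searched as GAAANNGAAA on both strands, where N is any base, and occurred in the windows of 6 of the 8 genes (75%). It was found in 1131 of all 32851 windows (3.44%), in 1079 of the 27025 genes with a window (3.99%) and in 34 of 87 other interferon pathway genes (39.1%). The stretch from 200 to 51 bases before the start is printed below for those 6 genes and for Ifit2, which had no match, in the direction of transcription and with ISRE matches in capitals.
Ifit1, chr19:34640689-34640838, plus strand: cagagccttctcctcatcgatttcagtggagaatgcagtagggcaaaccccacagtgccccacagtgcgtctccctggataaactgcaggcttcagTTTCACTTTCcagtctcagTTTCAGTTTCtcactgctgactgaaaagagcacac
Ifit3, chr19:34583329-34583478, plus strand: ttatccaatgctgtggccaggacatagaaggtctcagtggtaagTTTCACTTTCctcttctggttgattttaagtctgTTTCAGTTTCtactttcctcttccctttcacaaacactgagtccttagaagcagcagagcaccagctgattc
Ifit3b, chr19:34607757-34607906, plus strand: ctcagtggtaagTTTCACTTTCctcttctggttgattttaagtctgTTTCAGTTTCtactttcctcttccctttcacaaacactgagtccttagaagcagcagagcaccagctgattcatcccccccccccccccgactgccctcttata
Isg15, chr4:156200869-156201018, minus strand: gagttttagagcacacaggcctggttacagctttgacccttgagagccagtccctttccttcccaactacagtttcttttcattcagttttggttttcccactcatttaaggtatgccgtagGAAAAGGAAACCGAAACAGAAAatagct
Rsad2, chr12:26456503-26456652, minus strand: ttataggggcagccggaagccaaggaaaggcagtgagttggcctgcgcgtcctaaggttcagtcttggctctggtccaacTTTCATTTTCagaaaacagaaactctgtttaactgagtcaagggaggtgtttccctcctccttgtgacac
Bst2, chr8:71537523-71537672, minus strand: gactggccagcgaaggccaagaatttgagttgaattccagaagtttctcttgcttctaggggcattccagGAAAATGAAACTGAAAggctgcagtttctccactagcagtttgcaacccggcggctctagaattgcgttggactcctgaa
Ifit2, chr19:34550494-34550643, plus strand: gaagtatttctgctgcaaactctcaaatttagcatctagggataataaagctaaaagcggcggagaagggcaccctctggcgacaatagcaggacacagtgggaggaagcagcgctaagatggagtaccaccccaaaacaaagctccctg
Isg15 held 3 overlapping matches, which began 78, 72 and 66 bases before the start. Ifit3 and Ifit3b carried the same pair of matches, at 156 and 122 bases before the start in Ifit3 and at 188 and 154 in Ifit3b, and over the whole windows 258 of 260 aligned bases (99.2%) were identical. Ifit1 had matches at 104 and 85, Bst2 overlapping ones at 130 and 124, and Rsad2 a single one at 120 bases before the start. The windows of Ifit2 and Ifi44 held none. A second motif, the palindromic interferon gamma-activated site searched as TTCNNNGAA, occurred in the windows of Ifit2 and Bst2, against 2726 (8.30%) of all windows, and in Bst2 its last bases were the first bases of an ISRE match. That share is of windows, and a gene can have several, as Ifit2 has 2. No share of genes was worked out for this motif. These matches are letters in a window, not measured binding.

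**Figure D1:**
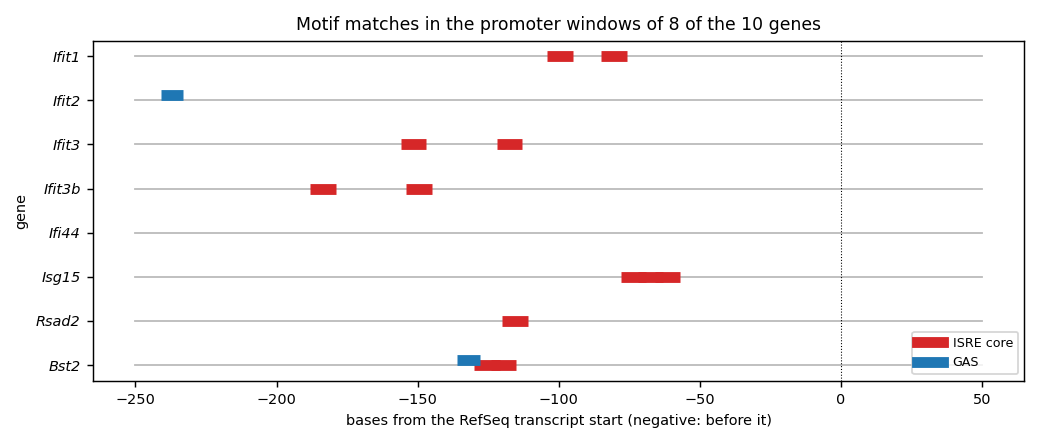
Positions of ISRE core (red) and gamma-activated site (blue) matches in the RefSeq windows of 8 genes, in bases from the transcript start on the horizontal axis. Matches lie before the start in all 7 genes that have any, and Ifi44 has none.

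The 15 samples had total counts of 24030558 to 37281126, and MEFD5min replicate 3 was the shallowest. That sample also stood apart in these genes: the 10 members lay at 26.5% to 66.3% (median 35.7%) of the mean of the other 2 MEFD5min samples, whereas the median over all genes was 99.7% and 5.75% of genes lay below 50%. Values that rest on MEFD5min are therefore also given without it, from a refit of the other 14 samples. Fibroblast identity was checked on 12 markers. Of these, 11 had means above 1 CPM (counts scaled to the library total with edgeR's TMM factors) in every condition, and Lum, a matrix proteoglycan, was at 0.772 CPM in MEFD0 and above 1 CPM in the other conditions. The 12 had sums of 10806 to 16734 CPM except in MEFD3min, where they were 25807 to 37866 CPM. The sum of 10 adipocyte markers was 42.7 to 65.6 CPM in untreated and 9671 to 13461 CPM in treated samples. Of 6 plasmacytoid dendritic cell genes besides Bst2, the defining marker Siglech was at 0 in all conditions and 4 others had means under 0.1 CPM. The sum of the 6 was 160 to 173 CPM in MEFD0, 696 to 807 in MEFD3min, 518 to 545 in MEFD3plu, 269 to 338 in MEFD5min and 390 to 407 in MEFD5plu, nearly all of it from Tcf4, a transcription factor of many tissues (167 CPM in MEFD0 and 750 in MEFD3min). Of 10 macrophage markers, Adgre1 and C1qa were at 0 in all conditions, and Mrc1, Cd68 and Lyz2 had the highest means in every condition. In the order MEFD0, MEFD3min, MEFD5min, MEFD3plu and MEFD5plu, Mrc1 had means of 0.793, 5.10, 5.71, 1.81 and 5.43 CPM. Lyz2 had 0.368, 2.45, 2.30, 1.29 and 2.76 CPM in that order, and Cd68 1.68, 3.28, 3.71, 2.89 and 1.85 CPM. The summed level of the 10 macrophage genes was 2.71 to 3.39 CPM in MEFD0, 10.3 to 12.3 in MEFD3min, 11.2 to 13.4 in MEFD5min, 5.70 to 6.31 in MEFD3plu and 9.05 to 10.9 in MEFD5plu, and the part of either list in the results was not tested.

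In sum over the 10 genes, the members took 96.4 to 99.4 CPM in MEFD0, 2371 to 3459 in MEFD3min, 25.6 to 28.5 in MEFD3plu, 1343, 544 and 1391 in MEFD5min replicates 1, 3 and 4, and 5572 to 5834 in MEFD5plu. Untreated cultures thus carried far more of these transcripts at day 3 and day 5 than at day 0, and treated cultures at day 5 carried the most. The lower sum of MEFD3plu against MEFD0 came mainly from Ifit2, with means of 10.9 and 73.5 CPM, and does not describe the 10 genes alike: 5 of them overlapped between these conditions and Rsad2 was higher in MEFD3plu. In bulk RNA, fewer expressing cells and less RNA per cell cannot be told apart.

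**Figure D2:**
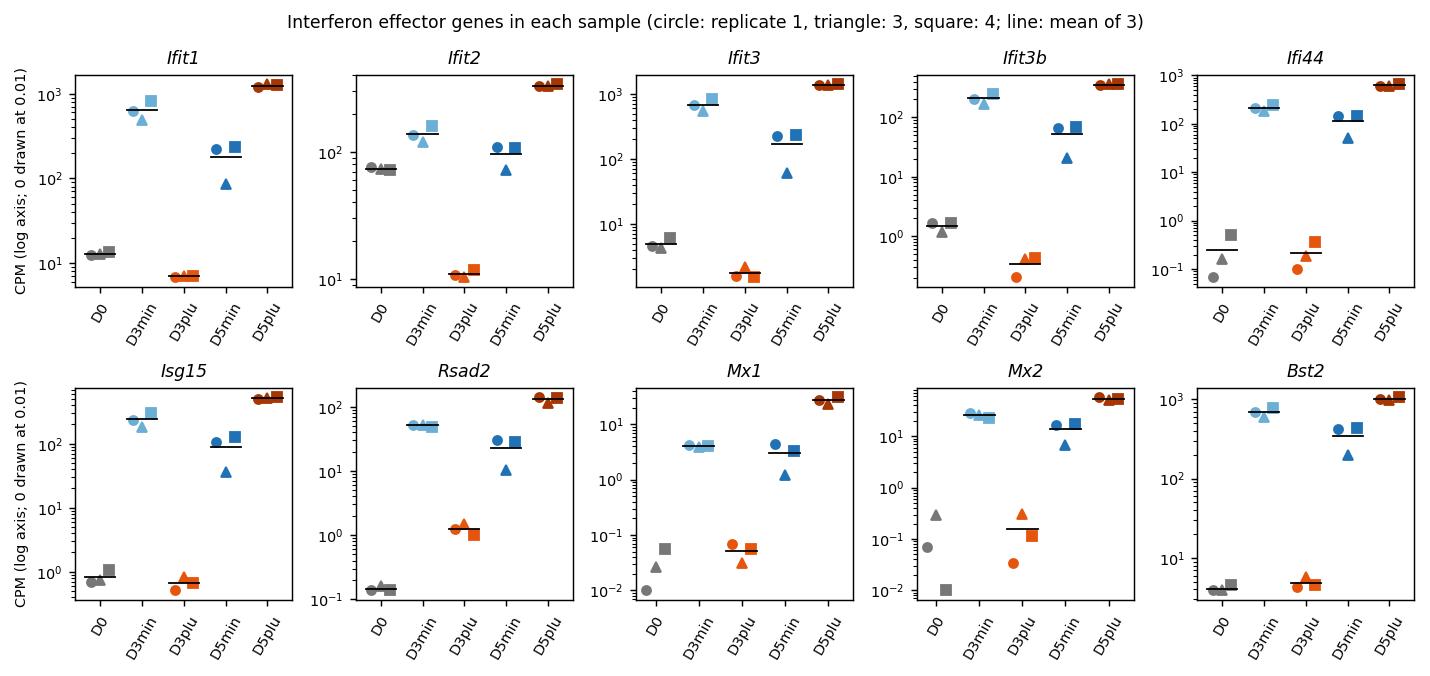
CPM of each of the 10 genes in each of the 15 samples, on log axes, with replicates 1, 3 and 4 as circle, triangle and square and the mean of 3 as a line where no sample is at 0. MEFD5plu is highest in all 10 genes, and the MEFD5min triangle (replicate 3) lies below the other 2 MEFD5min samples throughout.

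Among the Ifit genes, Ifit1, whose protein recognises viral RNA 5′ ends, is at chr19:34640871-34650009 (GRCm38, plus strand) and had 12.4, 12.6 and 13.4 CPM in MEFD0. It had 623, 487 and 821 CPM in MEFD3min, 220, 86.9 and 234 in MEFD5min, 6.82, 6.98 and 7.10 in MEFD3plu and 1200, 1296 and 1252 in MEFD5plu. The 5 conditions did not overlap, and MEFD3plu was lowest, below even day 0. The fitted log2 fold change of treated against untreated cells was -6.53 ± 0.32 (SE) at day 3 and 2.79 ± 0.26 at day 5, or 2.46 without MEFD5min replicate 3.

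Ifit3 at chr19:34583531-34588731 and Ifit3b at chr19:34607970-34613401, both on the plus strand, are near-copies, and 51.2% of the 50-base stretches in Ifit3 exons and 45% of those in Ifit3b exons recur elsewhere, almost all in each other. How the authors' counting treated reads that match both is not given in the sources used here, so the split between them is uncertain. Ifit3 had 4.59, 4.29 and 6.0 CPM in MEFD0, 678, 545 and 830 in MEFD3min, 222, 60.3 and 232 in MEFD5min, 1.60, 2.16 and 1.52 in MEFD3plu and 1368, 1392 and 1418 in MEFD5plu. Ifit3b had 1.65, 1.17 and 1.67 CPM in MEFD0, 207, 171 and 248 in MEFD3min, 66, 20.4 and 69.3 in MEFD5min, 0.205, 0.407 and 0.423 in MEFD3plu and 346, 361 and 361 in MEFD5plu. Both genes followed the same order of conditions as Ifit1, with no overlap between neighbouring conditions. Their log2 fold changes on treatment were -8.60 ± 0.46 (Ifit3) and -9.20 ± 0.47 (Ifit3b) at day 3, and 3.02 ± 0.34 and 2.77 ± 0.30 at day 5, which became 2.61 and 2.40 without MEFD5min replicate 3.

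Ifit2 at chr19:34550694-34576419, plus strand, was the member with the flattest course. It had 75.4, 73.0 and 72.1 CPM in MEFD0, 135, 119 and 160 in MEFD3min, 110, 71.9 and 107 in MEFD5min, 10.7, 10.3 and 11.6 in MEFD3plu and 328, 328 and 342 in MEFD5plu. Its level at day 0 was already more than 6 times that in MEFD3plu, and MEFD5min overlapped MEFD0 through replicate 3. The log2 fold change of treated against untreated cells was -3.66 ± 0.15 at day 3, the smallest fall of the 10, and 1.79 ± 0.13 at day 5, or 1.62 without MEFD5min replicate 3.

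Ifi44, at chr3:151730922-151749960 on the minus strand, had only 2, 6 and 18 counts in MEFD0 and 3, 6 and 13 in MEFD3plu. In CPM it had 0.0686, 0.159 and 0.502 in MEFD0, 211, 182 and 239 in MEFD3min, 147, 51.1 and 144 in MEFD5min, 0.102, 0.188 and 0.366 in MEFD3plu and 601, 605 and 657 in MEFD5plu. It was near absent in day 0 and in treated day 3 cells, which overlapped, and present in every other sample. Its day 3 log2 fold change of -9.83 ± 0.48 was the most negative of the members (-10.45 without MEFD3plu replicate 4, which held most of the counts there), and that at day 5 was 2.44 ± 0.28, or 2.09 without MEFD5min replicate 3. The relative Ifi44l had at most 5 counts in any sample and was not tested.

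Isg15, at chr4:156199424-156200818 on the minus strand, had 0.686, 0.742 and 1.06 CPM in MEFD0, 231, 186 and 305 in MEFD3min, 107, 35.8 and 125 in MEFD5min, 0.511, 0.814 and 0.676 in MEFD3plu and 505, 513 and 528 in MEFD5plu. MEFD0 and MEFD3plu overlapped at the bottom and the other 3 conditions were separate. The log2 fold changes on treatment were -8.48 ± 0.45 at day 3 and 2.52 ± 0.30 at day 5, or 2.15 without MEFD5min replicate 3.

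Rsad2, at chr12:26442746-26456452 on the minus strand, had 0.137, 0.159 and 0.140 CPM in MEFD0, 52.7, 51.3 and 48.8 in MEFD3min, 30.2, 10.5 and 27.8 in MEFD5min, 1.26, 1.47 and 0.986 in MEFD3plu and 139, 114 and 138 in MEFD5plu. It differed from the other members in that treated day 3 cells lay above day 0, without overlap. Its log2 fold changes on treatment were -5.37 ± 0.32 at day 3 and 2.50 ± 0.24 at day 5, or 2.17 without MEFD5min replicate 3.

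Mx1 at chr16:97447035-97462907, minus strand, was the lowest member, with 0, 1 and 2 counts in MEFD0 and 2, 1 and 2 in MEFD3plu. In CPM it had 4.26, 3.82 and 4.10 in MEFD3min, 4.44, 1.21 and 3.35 in MEFD5min and 27.5, 23.2 and 30.4 in MEFD5plu. From summed counts, MEFD3min was 78.3 times MEFD3plu (95% interval 33.3 to 243, counting error only), and no ratio or fold change is given between MEFD3plu and MEFD0, which were both at or under the floor of 3 counts a sample. The fitted log2 fold changes, which depend on a prior count here, were -6.19 ± 0.55 at day 3 and 3.14 ± 0.27 at day 5, or 2.80 without MEFD5min replicate 3. At so few counts the SE at day 3 is approximate and may be too small. Mx2 at chr16:97535308-97560900, plus strand, had 28.6, 26.1 and 22.4 CPM in MEFD3min, 16.9, 6.85 and 17.6 in MEFD5min and 56.9, 51.5 and 54.0 in MEFD5plu, against 0.0686, 0.291 and 0 in MEFD0 and 0.0341, 0.313 and 0.113 in MEFD3plu. Its log2 fold changes were -7.34 ± 0.48 at day 3 and 1.96 ± 0.27 at day 5. The first was -8.31 without MEFD3plu replicate 3, which held most of the counts in MEFD3plu, and the second 1.65 without MEFD5min replicate 3.

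Bst2, at chr8:71534255-71537456 on the minus strand, had 3.91, 3.90 and 4.52 CPM in MEFD0, 700, 601 and 781 in MEFD3min, 419, 199 and 430 in MEFD5min, 4.30, 5.79 and 4.59 in MEFD3plu and 1001, 973 and 1054 in MEFD5plu. MEFD0 and MEFD3plu overlapped, and the other conditions were separate. The log2 fold changes on treatment were -7.15 ± 0.27 at day 3 and 1.53 ± 0.20 at day 5, the smallest rise of the 10, or 1.25 without MEFD5min replicate 3.

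Over the 10 members the median log2 fold change of treated against untreated cells was -7.24 at day 3 (range -9.83 to -3.66) and 2.51 at day 5 (range 1.53 to 3.14), against medians of 0.00 and 0.01 over all genes tested. Without MEFD5min replicate 3 the day 5 median was 2.16. In all 10 genes the 3 treated samples lay below the 3 untreated samples at day 3 and above them at day 5, a pattern that 1197 of the 15997 genes (7.48%) had. The choice of members used these values, so nothing is read from that count. At the edges of the choice, Ifit2 had the smallest fall at day 3 and Bst2 the smallest rise at day 5, and of pathway genes outside it Ifit1bl2 had -7.29 and 2.87 and Oasl2 -9.45 and 1.88 at days 3 and 5. The day 3 value of Ifit1bl2 was -9.98 without MEFD3plu replicate 3, and its day 5 value 2.69 without MEFD5min replicate 3.

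**Figure D3:**
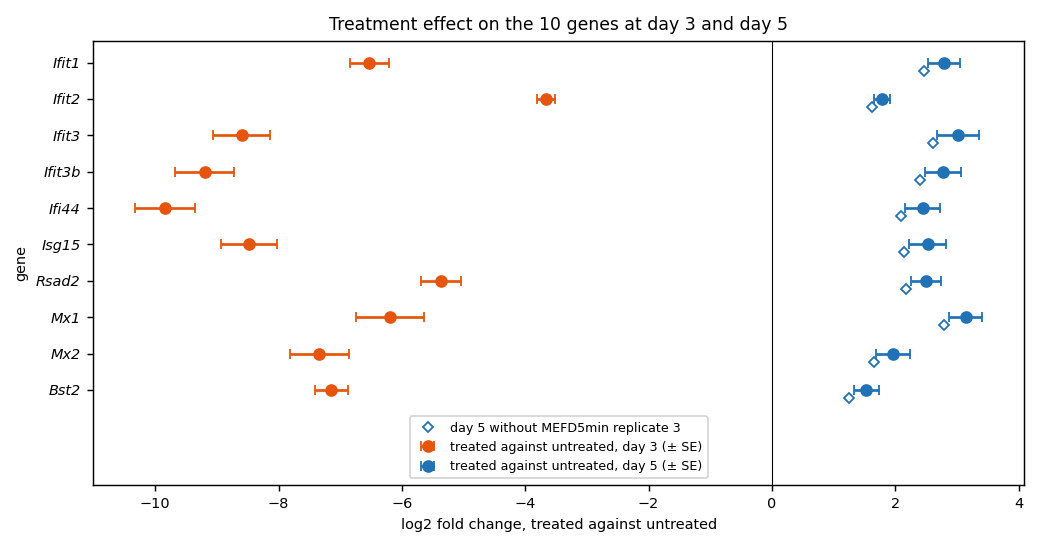
Fitted log2 fold changes of treated against untreated cells at day 3 (orange) and day 5 (filled blue), with standard errors as bars, for the 10 genes on the vertical axis. Open diamonds are day 5 without MEFD5min replicate 3, which lowers each rise and leaves all 10 above 0.

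Compared with day 0, untreated cells at day 3 had more RNA of all 10 genes. Each was called higher (quasi-likelihood test of edgeR, adjusted after Benjamini and Hochberg over 15997 genes, adjusted p under 0.05, largest adjusted p 1.3e-05 for Ifit2), where 31.4% of all genes tested were called higher. The choice of members favoured high MEFD3min values, so this count and this share are not a like comparison. The log2 fold changes ran from 0.91 ± 0.13 for Ifit2 through 5.65 ± 0.31 for Ifit1 and 8.16 ± 0.44 for Isg15 to 9.68 ± 0.48 for Ifi44, with a median of 7.26. For Mx1, summed counts gave a ratio of 139 (95% interval 47.1 to 675, counting error only). Single day 0 samples set the size of the largest values. Ifi44 had 10.74 without MEFD0 replicate 4, and the Mx1 ratio became 271 (48.3 to 10726). Mx2, at 7.63 ± 0.49, had 9.53 without MEFD0 replicate 3 and 7.03 without MEFD0 replicate 4. All 3 MEFD3min samples lay above all MEFD0 samples in each of the 10 genes, as they did in 31.1% of all genes tested. The fibroblast marker sum was also highest in MEFD3min, as given above, and its part was not tested.

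Untreated cells at day 5 were called higher than day 0 in all 10 genes as well, where 24.5% of all genes were. The median log2 fold change was 6.48, from 0.39 ± 0.13 for Ifit2 to 8.80 ± 0.47 for Ifi44, or 9.86 for Ifi44 without MEFD0 replicate 4. In 9 members all MEFD5min samples lay above all MEFD0 samples, as in 29% of all genes tested. Ifit2 was the exception, and its call (adjusted p = 0.021, edgeR) was lost without MEFD0 replicate 3 (adjusted p = 0.057), MEFD0 replicate 4 (0.059), MEFD5min replicate 1 (0.12) or MEFD5min replicate 4 (0.14). Without MEFD5min replicate 3 all 10 were called, with log2 fold changes of 0.56 (Ifit2) to 9.15 (Ifi44).

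Treated cells at day 5 were called higher than day 0 in all 10 genes, where 35.2% of all genes were. High MEFD5plu values were favoured by the choice of members, so this count and this share are not a like comparison either. The log2 fold changes were 2.18 ± 0.14 for Ifit2, 6.60 ± 0.32 for Ifit1, 7.94 ± 0.28 for Bst2, 9.77 ± 0.42 for Rsad2 and 11.24 ± 0.49 for Ifi44, with a median of 8.42 and a largest adjusted p of 3.6e-10 (edgeR). For Mx1 the ratio of summed counts was 930 (95% interval 318 to 4511, counting error only). Without MEFD0 replicate 4, Ifi44 had 12.30 and the Mx1 ratio was 1816 (326 to 71760).

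Treated cells at day 3 were close to day 0 in some members and below it in others. Of the 10, 1 was called higher and 4 lower, where 33.9% and 29.7% of all genes tested were. Ifit2 was lower by a log2 fold change of -2.76 ± 0.14 (adjusted p = 2.3e-11), Ifit3b by -2.07 ± 0.65 (0.0096), Ifit3 by -1.496 ± 0.44 (0.0072) and Ifit1 by -0.88 ± 0.28 (0.012, all from edgeR). The 4 called lower are the 4 Ifit genes of the set, which lie within 100 kb of each other on chromosome 19. Of these, Ifit3 and Ifit3b share much of their sequence. Low MEFD3plu values were also favoured by the choice. Beside the shares of all genes, nothing particular to the members or to the Ifit genes is read from these counts. Rsad2 was higher, at 3.05 ± 0.64 (adjusted p = 0.00046, edgeR), with 35 to 47 counts a sample against 4 to 6. The other 5 did not pass: the log2 fold change was 0.25 ± 0.25 for Bst2 (adjusted p = 0.40), -0.31 ± 0.64 for Isg15 (0.69), -0.15 ± 1.00 for Ifi44 (0.90) and 0.29 ± 1.11 for Mx2 (0.83), and Mx1, at or under 3 counts in every one of these samples, had an adjusted p of 0.66 (all edgeR). With 0 to 18 counts a sample in Ifi44, Mx1 and Mx2, a difference between MEFD3plu and MEFD0 was not detectable at this depth unless large.

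**Figure D4:**
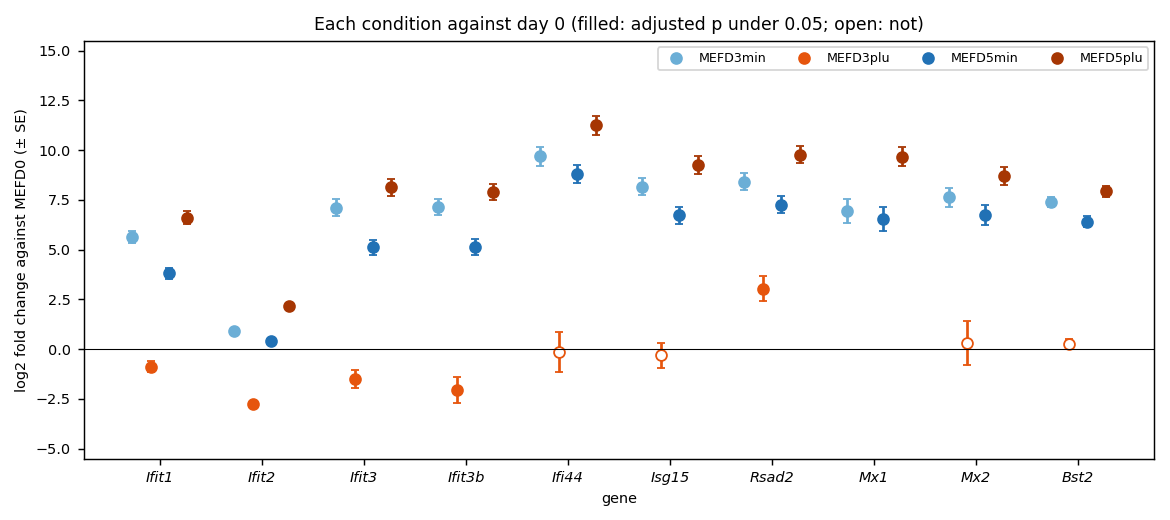
Log2 fold change of each condition against MEFD0 with its standard error, for each of the 10 genes, where filled points have an adjusted p under 0.05 and open points do not. MEFD3min, MEFD5min and MEFD5plu are above 0 for all 10 genes, and MEFD3plu lies below 0 for the 4 Ifit genes and above 0 for Rsad2, with no MEFD3plu point for Mx1, which was at or under 3 counts a sample there and in MEFD0.

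Levels between genes were compared as CPM per kb of exon. At day 0 Ifit2 was highest, at 18.7 ± 0.436 CPM per kb (SD, n = 3), followed by Ifit1 (4.83 ± 0.197) and Bst2 (4.55 ± 0.396), which overlapped. In the other 4 conditions Bst2 was highest per length, at 769 ± 99.6 CPM per kb in MEFD3min, 387 ± 144 in MEFD5min (470 without replicate 3), 5.42 ± 0.879 in MEFD3plu and 1118 ± 45.5 in MEFD5plu. In MEFD5plu no neighbouring genes in the order overlapped, and Bst2 was followed by Ifit3 (798), Isg15 (682), Ifit1 (470), Ifit3b (178), Ifi44 (101), Ifit2 (84.7), Rsad2 (30.1), Mx2 (15) and Mx1 (7.15 CPM per kb). Mx1 had the lowest mean per length in all 5 conditions. In MEFD0 and MEFD3plu, where it had at most 2 counts a sample, it overlapped Mx2 and Ifi44, so its place there is not settled.

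Over the 15 samples, the log2 CPM of pairs of members correlated at Pearson's r of 0.672 to 0.998 (median 0.967, 45 pairs). This is a description, since the points share libraries and fall into 5 conditions. With the mean of the 10 standardised profiles, r was 0.953 to 0.998 for all members but Ifit2, at 0.857. Over the 14 samples without MEFD5min replicate 3, r was 0.673 to 0.998 for the pairs, 0.953 to 0.998 for the other 9 members with the mean profile and 0.859 for Ifit2. Among the genes that are no members, the 10 with the highest r were Tgtp1 (0.998), Slfn8, Tgtp2, Eif2ak2, Gbp3, Trim30a, Olfr56, Parp14, Dhx58 and Trim12c (0.995), of which 9 remained among the 10 highest without MEFD5min replicate 3. Tgtp1 and Tgtp2 encode interferon-inducible GTPases, Eif2ak2 is the double-stranded RNA kinase PKR and Dhx58 an RNA sensor. Eif2ak2, one of those 10 with the most RNA at day 0, had mean levels of 42.0 CPM in MEFD0, 239 in MEFD3min, 152 in MEFD5min (172 without replicate 3), 27.6 in MEFD3plu and 373 in MEFD5plu.

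The wider pathway was read from lists of 109 further genes, of which 105 were in the files and 80 could be tested. Of these 80, 5 were higher and 66 lower in treated than untreated cells at day 3 (edgeR, adjusted p under 0.05), where 28% of all genes tested were called in each direction. At day 5, 65 were higher and 3 lower, where 26.3% and 24.2% of all genes were. Their median log2 fold change was -3.22 at day 3 and 1.42 at day 5, and 57 of the 80 were lower at day 3 and higher at day 5. In the test of the difference between the days, 68 had a more negative treatment effect at day 3 and 3 a more positive one, where 25.8% and 22.6% of all genes did. Without MEFD5min replicate 3, 82 were tested, 2 of them interferon ligand genes. Of the 82, 64 were higher and 2 lower at day 5 with a median of 1.19. In that refit 58 were lower at day 3 and higher at day 5, and 69 and 3 differed between the days. The lists were chosen with earlier results of these samples known and are not independent of them.

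**Figure D5:**
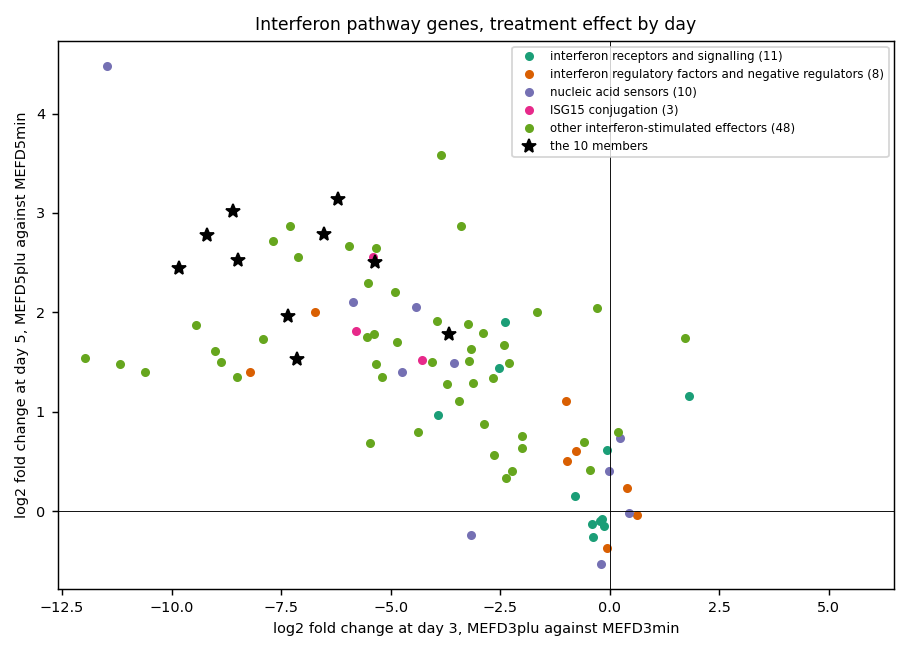
Fitted log2 fold change of treatment at day 3 (horizontal) and day 5 (vertical) for 80 pathway genes, coloured by list, and for the 10 members (stars). Most points lie to the left of 0 and above it, and the leftmost points (Oas1g, Zbp1) had no counts in MEFD3plu, so that their horizontal position depends on a prior count.

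Against day 0, 70 of the 80 pathway genes were higher and 4 lower in MEFD3min, 67 higher and 2 lower in MEFD5min, and 72 higher and 3 lower in MEFD5plu (edgeR). Of all genes, 31.4%, 24.5% and 35.2% were called higher in these comparisons and 28.6%, 21.9% and 29.8% lower. In MEFD5min 69 of 82 were higher and 1 lower without replicate 3. In MEFD3plu against MEFD0, 23 of the 80 were higher and 25 lower, with a median log2 fold change of 0.05. Beside shares of 33.9% and 29.7% and a median of 0.07 over all genes, nothing particular to the pathway genes is read from these counts.

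None of the 21 interferon ligand genes had enough counts to be tested in the fit of all 15 samples. Without MEFD5min replicate 3, 2 of them were tested, on few counts. In that refit 1 was called higher at day 5, as were 3704 of all 16473 genes tested. The treatment effect of these 2 was more negative at day 3, as it was in 3853 of all genes. Ifnb1, interferon beta, had 0, 0 and 1 counts in MEFD0, 1, 4 and 1 in MEFD3min, 5, 1 and 6 in MEFD5min, 0, 0 and 0 in MEFD3plu and 8, 13 and 19 in MEFD5plu. Ifna4, an interferon alpha gene, had 0 counts in all samples of MEFD0 and MEFD3plu, 2, 1 and 2 in MEFD3min, 2, 0 and 3 in MEFD5min and 11, 19 and 10 in MEFD5plu. Its ratio of MEFD5plu to MEFD5min was 8.06 from summed counts (95% interval 3.18 to 26.2, counting error only), or 5.96 (2.35 to 19.3) without MEFD5min replicate 3 and 12.6 (3.26 to 107) without MEFD5min replicate 4. MEFD5plu, where the members' RNA was highest, had the most counts of both genes, though on few reads, and Ifna4 had 5 counts in all in MEFD3min and in MEFD5min alike, while the mean of every member was higher in MEFD3min. Ifnz and Ifne did not show this order. Ifnz had 4, 3 and 2 counts in MEFD5plu and 3, 2 and 3 in MEFD5min, a ratio of 1.13 (0.388 to 3.38), and Ifne had 1, 1 and 3 against 5, 1 and 5. The remaining ligand genes had at most 5 counts in any sample. Ifna4, Ifnz and Ifne are named here after their values were seen.

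Of 11 receptor and signalling genes tested, 8 were lower and 1 higher with treatment at day 3, and 5 were higher and 1 lower at day 5 (5 and 0 without MEFD5min replicate 3). Of all genes tested, 28% were called in each direction at day 3, and 26.3% were higher and 24.2% lower at day 5. Counts near these shares, here and in the lists below, are not read as results. Of the receptor chains, Ifnar1 moved little, with a log2 fold change of -0.16 ± 0.06 at day 3 (adjusted p = 0.040, edgeR) and -0.08 ± 0.07 at day 5 (0.35). Ifnar2 fell at day 3, by -0.79 ± 0.08 (adjusted p = 2.9e-07, edgeR), and had 0.15 ± 0.08 at day 5 (0.13). The day 5 values became -0.07 and 0.10 without MEFD5min replicate 3. The day 3 call of Ifnar1 was lost (edgeR's adjusted p from 0.050 to 0.11) without MEFD0 replicate 1 or 3, MEFD3min replicate 1 or 3, any MEFD3plu sample, MEFD5min replicate 1, or MEFD5plu replicate 3 or 4. The transcription factors moved more. Irf9 had 14.9, 15.2 and 14.5 CPM in MEFD0, 177, 168 and 193 in MEFD3min, 114, 76.4 and 110 in MEFD5min, 11.3, 13 and 11.4 in MEFD3plu and 200, 197 and 192 in MEFD5plu. As in the Ifit genes, the MEFD3plu samples lay below all MEFD0 samples. The log2 fold changes of Irf9 were -3.91 ± 0.13 at day 3 and 0.97 ± 0.11 at day 5, and those of Stat2 were -2.53 ± 0.21 and 1.44 ± 0.20, all with adjusted p at or under 1.9e-05 (edgeR). At day 5 they were 0.81 for Irf9 and 1.21 for Stat2 without MEFD5min replicate 3. Ifngr1, a chain of the interferon gamma receptor, rose at both days, by 1.81 ± 0.08 and 1.16 ± 0.08 (1.08 at day 5 without that replicate), and Ifngr2 fell, at -0.37 ± 0.09 and -0.26 ± 0.09. The day 5 call of Ifngr2 was lost without MEFD5min replicate 3 (adjusted p = 0.060), MEFD5plu replicate 1 (0.066) or MEFD5plu replicate 4 (0.055, edgeR).

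Of 8 regulatory factors and inhibitors, 4 were lower and 2 higher at day 3, where 28% of all genes were called in each direction. At day 5, 5 were higher and 1 lower (4 and 0 without MEFD5min replicate 3), where 26.3% and 24.2% of all genes were. Irf7, which amplifies interferon transcription, had 0.377, 0.477 and 0.279 CPM in MEFD0, 69.1, 80.6 and 72.2 in MEFD3min, 38.7, 18.3 and 33.2 in MEFD5min, 0.682, 0.783 and 0.620 in MEFD3plu and 132, 112 and 118 in MEFD5plu. Its log2 fold changes were -6.73 ± 0.26 and 2.0 ± 0.18 at days 3 and 5, the latter 1.75 without MEFD5min replicate 3. Irf2, a repressor, rose by 0.62 ± 0.15 at day 3 and had -0.04 ± 0.15 at day 5 (-0.08 without that replicate). Socs3 had -0.06 ± 0.15 at day 3 and fell at day 5 (-0.37 ± 0.14, adjusted p = 0.041, edgeR), a call lost without MEFD5min replicate 3 (adjusted p = 0.21), MEFD3min replicate 1 (0.051), MEFD5plu replicate 3 (0.15) or MEFD5plu replicate 4 (0.079).

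The enzymes that join Isg15 to proteins moved with it. All 4 of the 5 listed that could be tested were lower at day 3 and higher at day 5, as were 997 of the 15997 genes tested. The activating enzyme Uba7 had log2 fold changes of -4.28 ± 0.23 and 1.52 ± 0.19, the conjugating enzyme Ube2l6 -5.79 ± 0.29 and 1.82 ± 0.22, the ligase Herc6 -5.40 ± 0.33 and 2.56 ± 0.24, and the protease Usp18, which removes Isg15 and restrains the receptor and also counts among the inhibitors above, -8.21 ± 0.34 and 1.40 ± 0.22. All 4 were still called higher at day 5 without MEFD5min replicate 3, at 1.25 for Uba7, 1.54 for Ube2l6, 2.24 for Herc6 and 1.13 for Usp18. Trim25 had at most 13 counts a sample and was not tested. Against day 0, Ube2l6 had 10.9, 10.5 and 13.4 CPM in MEFD0 and only 2.25, 1.22 and 1.41 in MEFD3plu, while Uba7 had 2.02, 2.23 and 1.93 in MEFD0 and 2.62, 2.98 and 2.59 in MEFD3plu.

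Of 10 nucleic acid sensors, 6 were lower and 1 higher at day 3, where 28% of all genes were called in each direction. At day 5, 7 were higher and 1 lower (7 and 2 without MEFD5min replicate 3), where 26.3% and 24.2% of all genes were. Zbp1, a sensor of left-handed nucleic acids, had 346, 337 and 361 counts in MEFD3min, 0 in every MEFD3plu sample, 234, 35 and 199 in MEFD5min and 3469, 2885 and 3643 in MEFD5plu. It was at least 115-fold higher in MEFD3min than in MEFD3plu, from a floor of 3 counts per library, and rose at day 5 by 4.48 ± 0.31 on the log2 scale, the largest rise of the pathway genes, or by 4.10 without MEFD5min replicate 3. Cgas, the cytosolic DNA sensor, had -0.20 ± 0.13 at day 3 and fell at day 5 (-0.53 ± 0.12, adjusted p = 0.0016, edgeR), with -0.49 (0.0081) without that replicate.

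Of 48 other effectors, 45 were lower and 1 higher at day 3 (edgeR), where 28% of all genes were called in each direction. At day 5, 45 were higher, or 44 without MEFD5min replicate 3, where 26.3% of all genes were. Oas1g and Oas2 make the oligoadenylates that activate RNase L. Oas1g had 491, 569 and 428 counts in MEFD3min and 0 in each MEFD3plu sample, at least 163-fold higher, and Oas2 had 2969, 3296 and 1739 against 2, 1 and 0, a ratio of 2653 (95% interval 907 to 12865, counting error only), which was 5545 without MEFD3plu replicate 1 and 1680 without MEFD3plu replicate 4. At day 5 the largest rises were those of Ifit1bl1 (3.58 ± 0.36) and Slfn5 (2.87 ± 0.27), or 3.23 and 2.53 without MEFD5min replicate 3. Ifitm1, with at most 29 counts a sample, rose at both days, by 1.72 ± 0.68 and 1.74 ± 0.66 (adjusted p = 0.037 and 0.033, edgeR). Its day 3 call was lost without MEFD3min replicate 1 (adjusted p = 0.075), MEFD3min replicate 4 (0.12) or MEFD3plu replicate 3 (0.26, with a log2 fold change of 1.03, edgeR), and its day 5 call without MEFD5min replicate 3 (0.097), MEFD5min replicate 4 (0.14) or MEFD5plu replicate 4 (0.18). The day 5 value was 2.46 without MEFD5min replicate 1.

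The nearest tested protein-coding gene that was no member, on each side of every member but Mx2, gave 14 neighbours. Of these, 5 were higher and 8 lower at day 3, where 28% of all genes tested were called in each direction. At day 5, 8 were higher and 2 lower, where 26.3% and 24.2% of all genes were. In all, 6 of the 14 were lower at day 3 and higher at day 5, as were 997 of the 15997 genes tested. Leaving out MEFD5min replicate 3, 8 were higher and 2 lower at day 5, and 5 were lower at day 3 and higher at day 5. Of the 6, Ifit1bl1, Ifit1bl2 and Cmpk2 are on the pathway lists. Cmpk2, a nucleotide kinase 12.8 kb from Rsad2, had -5.53 ± 0.34 and 2.30 ± 0.25 at days 3 and 5 (1.96 at day 5 without that replicate). The other 3 are not on the lists and moved less: Mvb12a, 5.47 kb from Bst2, had -1.44 ± 0.13 and 0.38 ± 0.13, Agrn, 1.94 kb from Isg15, had -1.19 ± 0.24 and 0.90 ± 0.24, and Lipa, 23.2 kb from Ifit2, had -0.54 ± 0.08 and 0.60 ± 0.08. Their day 5 values without MEFD5min replicate 3 were 0.33, 0.72 and 0.54, and the call of Mvb12a was lost (adjusted p = 0.084, edgeR), as it was without MEFD5min replicate 1 (0.060) or MEFD5plu replicate 3 (0.054). AW011738, 2.49 kb on the other side of Isg15, was lower at day 3 (-5.95 ± 0.87) and had 1.13 ± 0.46 at day 5 (adjusted p = 0.050, edgeR). Its day 3 value was -8.66 without MEFD3plu replicate 1. At day 5 its adjusted p was 0.18 without MEFD5min replicate 3 (log2 fold change 0.75), and between 0.027 and 0.049 without MEFD0 replicate 3 or 4, MEFD3min replicate 4, MEFD3plu replicate 4, MEFD5min replicate 4 or MEFD5plu replicate 4. The remaining neighbours that passed went otherwise. Ptgfr and Rnf144a were higher at both days, and Pank1, 157 kb from Ifit1, and Plvap were higher at day 3. Adgrl2, as far as 2740 kb from Ifi44, was lower at both days. Prdm15, 329 kb from Mx1, was higher at day 3 (0.68 ± 0.16) and lower at day 5 (-0.52 ± 0.16). At day 5 and without MEFD5min replicate 3, values were 2.26 for Ptgfr, 1.78 for Rnf144a, -0.70 for Adgrl2 and -0.46 for Prdm15, and Pank1 was called higher at day 5 too (0.33, adjusted p = 0.027, edgeR). The day 3 call of Plvap was lost without MEFD3min replicate 1 (adjusted p = 0.12), MEFD3plu replicate 1 (0.053) or MEFD3plu replicate 3 (0.12), and it gained a day 5 call without MEFD5plu replicate 3 (0.027). The day 5 call of Prdm15 was lost without MEFD5plu replicate 3 (0.067, all edgeR).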

How the data were processed

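RNA-Seq covered 15 MEF samples (5 conditions, 3 samples each). The files deposited by the authors hold unnormalized read counts of 46603 Ensembl genes on GRCm38, with a file per sample. The submitters' processing notes name TopHat2 2.1.0, HTSeq and DESeq2 without their roles. The labels and the methods name different TruSeq kits, one of which does not mark strand, and neither the strand setting nor the treatment of multiply matching reads is given in the sources used here. No exon of a member overlapped another gene on either strand. The floor was 3 counts per library, and intervals (95%) and floors cover counting error only.

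In R 4.3.3, edgeR 4.0.16 kept 15997 genes (filterByExpr on 5 conditions), scaled libraries by TMM and fitted all 15 samples at once, with no covariates. The glmQLFTest function gave p-values, adjusted by Benjamini-Hochberg within each comparison, and genes under 0.05 were called. Log2 fold changes used a prior count of 0.125. Each SE was worked back from the quasi-likelihood test. It is the size of the log2 fold change without a prior count, over the square root of the F statistic. Where a condition held few counts, such an SE is approximate and may understate the uncertainty. Exact tests of 3 samples against 3 cannot go below 0.1, so none was run. Shared sequence was measured as the recurrence of 50-base stretches. The members, the pathway and marker lists and the tests were chosen with earlier results of these data known. The text names all members, the genes of interferon signalling and Isg15 conjugation, the 3 largest rises and falls among pathway genes at each day, the 10 genes with the most similar profile, and each member's tested neighbours that passed, except a gene that is not reported here. Symbols came from a gene name table that matched 46005 identifiers.

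Deviations of same-numbered samples from their condition means correlated at 0.143 to 0.360 between MEFD3plu and MEFD3min. They correlated at 0.0837 to 0.180 between MEFD3min and MEFD0 and at 0.0706 to 0.124 between MEFD3plu and MEFD0. The replicate numbers may pair these samples, which was not tested, and what the numbers share is not stated. Alternatives were DESeq2 1.42.0, its size factors in edgeR, total counts alone, no filter, at least 10 counts in every sample (12251 genes), only the conditions compared, the replicate number as a block, stricter calls, a prior count of 2 and each sample left out. The steps were tested on simulated counts.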

Additional observations from a re-analysis of the deposited data

Results flagged for a closer look

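The treatment effect of all 10 members differed in direction between the days, with every treated sample below the untreated ones at day 3 and above them at day 5. Because the members were chosen for this pattern, the difference was not tested. As the day 3 minus the day 5 log2 fold change, it was -9.32 for Ifit1, -5.45 for Ifit2, -11.62 for Ifit3, -11.97 for Ifit3b, -12.28 for Ifi44, -11.00 for Isg15, -7.87 for Rsad2, -9.33 for Mx1, -9.30 for Mx2 and -8.68 for Bst2. Without MEFD5min replicate 3 these lay between -11.93 (Ifi44) and -5.28 (Ifit2). Leaving out 1 sample moved 2 of the values by more than 1.5-fold on the unlogged scale: Mx2 had -10.27 without MEFD3plu replicate 3 and Ifi44 -12.89 without MEFD3plu replicate 4.

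Of 10 pathway genes named for their function, 9 had a more negative treatment effect at day 3 in edgeR's test of the difference (largest adjusted p 4.4e-06, for Ifnar2), where 25.8% of all genes did and 22.6% had a more positive one. These 10 were picked with earlier results of these samples known. In the receptor and its transcription factors the difference was -0.94 for Ifnar2, -3.96 for Stat2, -4.88 for Irf9 and -8.73 for Irf7. Among genes of Isg15 conjugation and nucleotide metabolism it was -9.61 for Usp18, -5.80 for Uba7, -7.61 for Ube2l6, -7.96 for Herc6 and -7.83 for Cmpk2. All 9 were still called without MEFD5min replicate 3, with -0.89 for Ifnar2 and -9.34 for Usp18 as the least and the most negative. Ifnar1 did not pass.

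A further 11 pathway genes were named for the size of their change at day 3 or day 5, so their difference between the days is given as a description, without a test or a count. The effectors Ifit1bl1, Slfn5 and Oas2 had -7.42, -6.26 and -12.67. Without single MEFD3plu samples, Ifit1bl1 had -8.47 (without replicate 4) and Oas2 -13.58 (without replicate 1) or -12.07 (without replicate 4). Fitted values of -13.51 for Oas1g and -15.95 for Zbp1 rest on 0 counts in MEFD3plu and depend on the prior count. Ifngr1 had 0.65 and Irf2 0.66, in the other direction. The smallest differences of the 11 were 0.33 for Cgas, 0.31 for Socs3, -0.12 for Ifngr2 and -0.02 for Ifitm1. Without MEFD5min replicate 3 they were 0.29, 0.19, -0.13 and 0.13. That of Ifitm1 ran from -0.74 to 0.49 when single samples were left out.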

How the results depend on the processing

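Scaling by total counts alone moved the all-gene median (log2) by -0.16 at day 5 and by at most 0.18 in size elsewhere. With at least 10 counts in every sample, 5 members were left to test, because the filter removes genes near 0 in any condition, and 5 were called higher in MEFD3min, 5 in MEFD5min and 5 in MEFD5plu than in MEFD0, and 3 lower in MEFD3plu. Under it 7 of 7 neighbours were called at day 3 and 6 at day 5. Requiring a 2-fold change left 7 neighbours at day 3, 5 at day 5, and 25 pathway genes (10 higher, 15 lower) in MEFD3plu against MEFD0, where 48 were called without it.

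When single samples were left out, the median log2 fold change of the members ranged from -7.80 (without MEFD3plu replicate 3) to -6.99 (without MEFD3plu replicate 1) at day 3, from 2.16 to 2.71 at day 5, and from -9.80 to -8.99 for the difference. The members called in MEFD5min against MEFD0 were 9 or 10, and in the other comparisons with MEFD0 their number did not move. Pathway genes called ranged from 69 to 74 at day 3 and from 65 to 72 at day 5.

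The block for the replicate number gave 73 pathway genes at day 3 and 70 at day 5, a members' median of -7.24 at day 3 and 2.60 at day 5, and changed the call of 1 gene named here, AW011738 at day 5 (adjusted p = 0.048, edgeR). Same-numbered samples correlated at -0.00453 to 0.0538 between MEFD5plu and MEFD5min, and pairing was not tested there either. Over all alternatives no called direction reversed. Over all single genes and alternatives, a call was lost 76 times and gained 15 times, mainly for Ifnar1, Ifitm1, Socs3, Ifngr2, Ifit2, Mvb12a, Plvap and AW011738. Many of the lost calls came from the stricter calls alone (adjusted p under 0.01 or a change of at least 2-fold). Those leave the fitted values as they were. Depth limits Mx1, Mx2 and Ifi44 in MEFD0 and MEFD3plu, and the interferon genes throughout.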
